A study of Drosophila melanogaster with 32 samples.

Results

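Su(Hw) and Mod(mdg4) were mapped by chromatin immunoprecipitation with sequencing (ChIP-seq), which finds where a protein sits on chromatin, in M1BP-depleted Kc167 cells. Kc167 is a cell line of Drosophila melanogaster derived from embryos. The comparison rests on 4 of the 32 libraries of the series, namely replicates 1 and 2 for each protein. Cells of these libraries had received 20 µg of double-stranded RNA against M1BP and were kept for 5 days at 25 °C, and mock-treated cells of the same experiment served as controls. Peaks of the 4 lists that overlapped by 1 bp or more were merged into 8703 sites. A site was called shared when all 4 lists held a peak there, Su(Hw)-only when both Su(Hw) lists and neither Mod(mdg4) list did, and Mod(mdg4)-only in the opposite case. The remaining protein in the depleted cells was not measured here, but M1BP itself kept 1776 and 1699 peaks after depletion, against 2980 and 2781 in mock cells.

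Su(Hw) is a zinc-finger protein that binds DNA directly and is best known from the gypsy insulator, an element that blocks an enhancer from acting on a promoter. Mod(mdg4) and CP190 carry BTB domains, through which proteins pair with each other, and in the gypsy insulator they sit on DNA together with Su(Hw). The mod(mdg4) gene gives many protein isoforms, and the labels do not say which of them the antibody recognises. M1BP, another zinc-finger protein, recognises promoters through a sequence called Motif 1.

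The lists of the proteins overlapped in length and differed in peak width. The Su(Hw) lists held 5577 and 5324 peaks (5450.5 ± 179, mean ± SD, n = 2) and the Mod(mdg4) lists 5575 and 4862 (5218.5 ± 504, n = 2), and these numbers overlapped (exact permutation test over libraries, two-sided, p = 0.667, adjusted p = 0.667 over 3 tests). With 2 libraries against 2 no p under 0.3333 can be reached. The overlap in length held with weak and narrow peaks kept. Su(Hw) lists were longer by 2030.5 peaks on average with a −log10 q of 10 or more required, and by 2675 with a width of at least 287 bp required, an alternative chosen after seeing the data, and the groups then did not overlap (exact permutation p = 0.3333 for each). Su(Hw) peaks had median widths of 837 and 829 bp and a narrowest peak of 287 bp, and Mod(mdg4) peaks had median widths of 310 and 296 bp and a narrowest peak of 147 bp. Of the sites found in either library of a protein, 87.3% had a peak in both Su(Hw) libraries and 50.3% in both Mod(mdg4) libraries. The number of reads behind each list was not used here, so the depth is unknown.

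The Mod(mdg4) libraries stood apart from each other at weak sites. Replicate 1 alone held a peak at 1386 sites and replicate 2 alone at 1093, with median ranks of 22.1 and 27.0 where 100 is the strongest peak of a list. Of the replicate 1 sites on chromosome arms 30.9% (95% Wilson interval 28.5 to 33.5) had a summit within 250 bp of an annotated gene end, against 4.23% (3.13 to 5.69) of the replicate 2 sites. CP190 had peaks in both of its knockdown libraries at 30.5% of the former and 1.10% of the latter, and M1BP had bound 15.5% and 0.183% of them in both mock libraries. Gene-end and CP190 shares of Mod(mdg4)-only sites are therefore also given from each library, and other values of this class rest on both libraries together.

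Most places where Mod(mdg4) was found in both libraries also carried Su(Hw), while many Su(Hw) sites lacked Mod(mdg4). Of the 8703 sites 2643 were shared (30.4%), 1844 were Su(Hw)-only (21.2%) and 496 were Mod(mdg4)-only (5.7%). Shared sites made up 84.2% (95% Wilson interval 82.9 to 85.4) of the 3139 sites that were either shared or Mod(mdg4)-only, and 58.9% (57.5 to 60.3) of the 4487 that were shared or Su(Hw)-only. Another 3720 sites had a mixed pattern, of which 2479 lay in a lone Mod(mdg4) list, 538 in a lone Su(Hw) list and 518 in both Su(Hw) lists with 1 Mod(mdg4) list. Intervals here and below cover counting error only, and sites are not replicates of a condition.

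**Figure D1:**
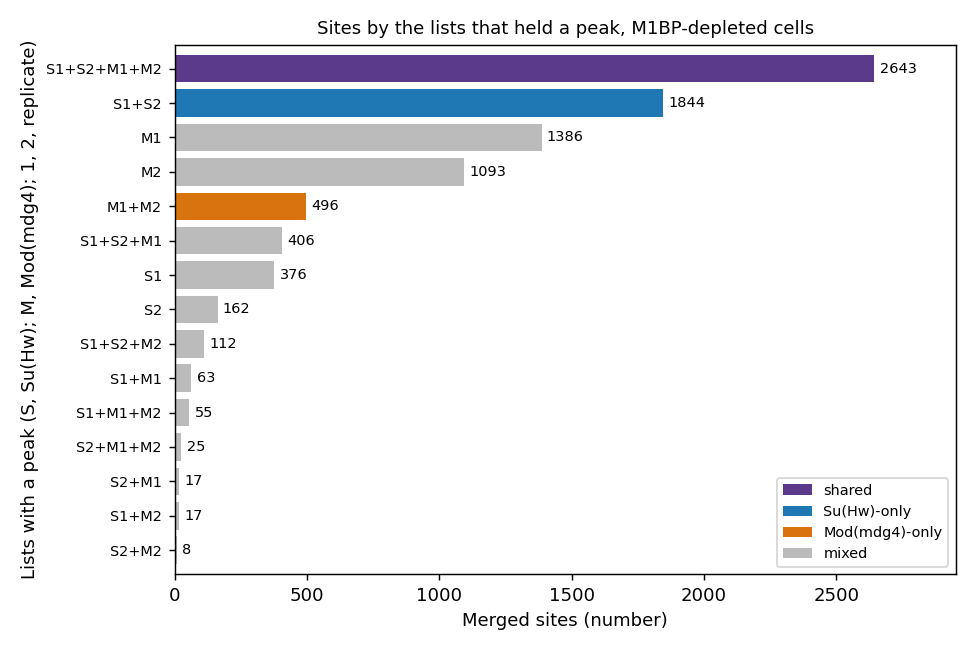
Number of merged sites (horizontal axis) for each combination of lists that held a peak (vertical axis; S, Su(Hw); M, Mod(mdg4); 1 and 2, the replicates), without error bars. The longest bars are the 2643 shared sites and the 1844 Su(Hw)-only sites, and the Mod(mdg4) lists each held more sites alone (1386 and 1093) than the 496 they had in common without Su(Hw).

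The count of Mod(mdg4)-only sites depended on both Mod(mdg4) libraries. It was 1606 without Mod(mdg4) replicate 1 and 1893 without replicate 2, and the shared part of Mod(mdg4) sites then fell to 63.2% and 61.7%. The shared part of Su(Hw) sites moved less, to 55.0% and 60.9%. With peaks required to overlap by 50% of each peak, 1153 sites were shared, in lists whose peaks differed in width. Few sites lay at the edge of the overlap rule. Among shared sites 5 had a pair of lists whose peaks did not meet directly, the smallest direct overlap within a same-numbered pair was 39 bp, and the median overlap was 496 bp. Among Su(Hw)-only sites 3 had a Mod(mdg4) peak within 100 bp, the nearest at 47 bp, and for Mod(mdg4)-only sites the nearest Su(Hw) peak was 152 bp away.

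At shared sites the summits of the proteins lay close together, though not as close as those of replicates of the same protein. The median distance between a Su(Hw) and a Mod(mdg4) summit was 23 bp for both pairings with Su(Hw) replicate 1 and 22 bp for both with replicate 2. Between replicates it was 11 bp for Su(Hw) and 16 bp for Mod(mdg4). Summits of different proteins lay within 50 bp at 75.9 to 77.8% of shared sites, against 93.3% for the Su(Hw) and 84.2% for the Mod(mdg4) replicates. The distance was shorter at stronger Mod(mdg4) peaks. From the weakest to the strongest quintile of Mod(mdg4) peaks its median fell from 54 to 18 bp in replicate 1 and from 42 to 17 bp in replicate 2.

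**Figure D2:**
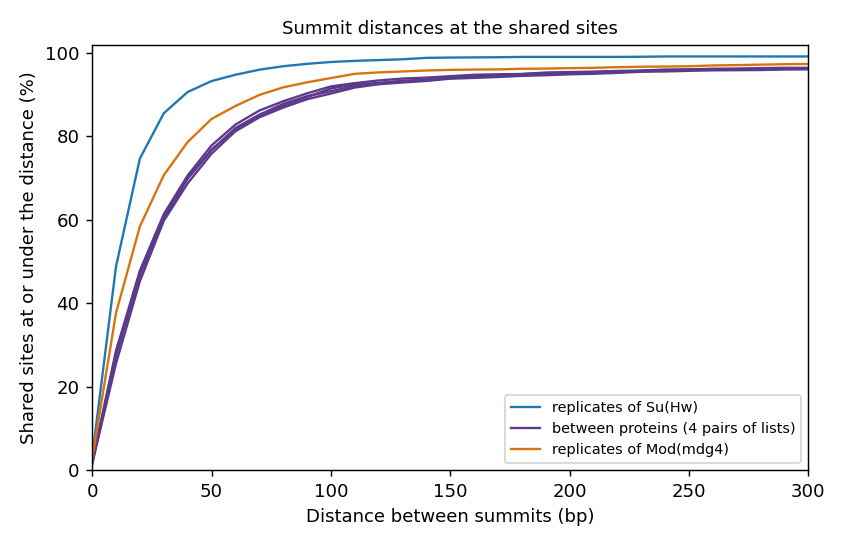
Share of the shared sites (vertical axis, %) whose summits lay at or under a given distance (horizontal axis, bp), with a line per pair of lists. The 4 lines between the proteins run together and lie below both replicate lines, with 75.9 to 77.8% of sites within 50 bp against 84.2% and 93.3%.

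A small group of shared sites held several Mod(mdg4) peaks. More than 1 Mod(mdg4) peak was found at 405 shared sites (15.3%) in replicate 1 and at 356 (13.5%) in replicate 2, and more than 1 Su(Hw) peak at 37 (1.40%) and 75 (2.84%). Summits of the proteins were over 200 bp apart at 121 to 135 shared sites (4.58 to 5.11%). The site beside the cuticular protein genes Cpr47Ee and Cpr47Ef on 2R was of this kind. Its summits were 1996 bp apart in replicate 1 and 5 bp apart in replicate 2.

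Shared sites were strong in both proteins. Fold enrichment of ChIP over control is not scaled between libraries, so peaks were ranked within each list. The median Su(Hw) rank was 69.1 and 68.6 at shared sites and 35.5 and 32.0 at Su(Hw)-only sites, in replicates 1 and 2. The median Mod(mdg4) rank was 75.3 and 70.9 at shared sites and 42.3 and 30.3 at Mod(mdg4)-only sites. The gap between classes was thus 33.6 and 36.6 for Su(Hw) and 33.0 and 40.5 for Mod(mdg4), the same way in each library. In folds, the median Su(Hw) peak had 11.8 and 13.2 at shared against 5.57 and 5.57 at Su(Hw)-only sites, and the median Mod(mdg4) peak 7.14 and 5.41 against 3.07 and 2.58.

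The proteins differed at their strongest peaks. In the strongest quintile of Mod(mdg4), 1080 of 1084 sites with both Mod(mdg4) peaks were shared in replicate 1 (99.6%, 95% Wilson interval 99.1 to 99.9) and 931 of 936 in replicate 2 (99.5%, 98.8 to 99.8). In the strongest quintile of Su(Hw), 75.8% (73.2 to 78.3) and 78.8% (76.2 to 81.1) were shared, and 196 and 167 sites carried no Mod(mdg4) peak in either library. These shares count only sites with a peak in both lists of the protein. In the weakest Mod(mdg4) quintile 73 of 188 such sites (38.8%) and 170 of 367 (46.3%) were shared. In the weakest Su(Hw) quintile it was 69 of 589 (11.7%) and 110 of 801 (13.7%). Fewer of the weakest Mod(mdg4) peaks were found in both libraries, so these shares do not compare the proteins over all weak peaks. For Mod(mdg4) the shared part grew with each quintile. For Su(Hw) it was 75.9% in the fourth and 75.8% in the fifth quintile of replicate 1, and 74.8% and 78.8% in replicate 2.

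**Figure D3:**
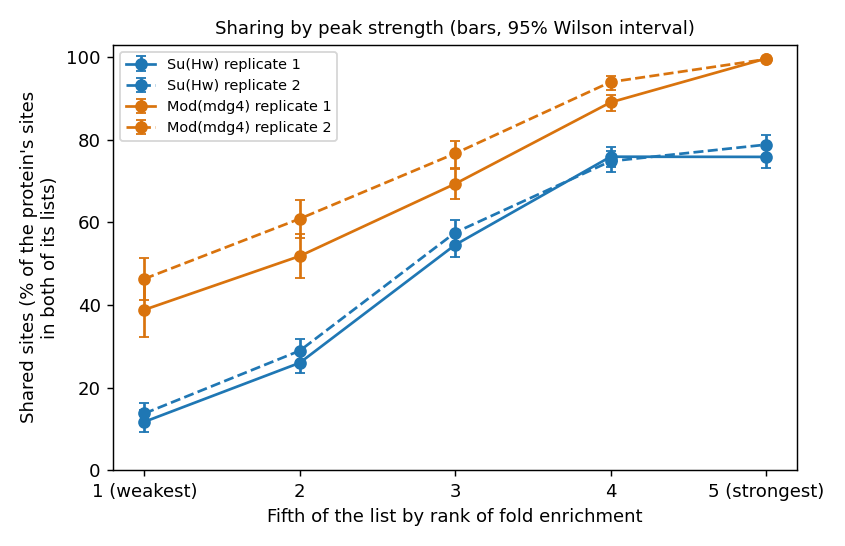
Sites shared by the proteins (vertical axis, % of the sites a protein had in both of its lists) in each quintile of a list by rank of fold enrichment (horizontal axis, 5 is the strongest), with 95% Wilson intervals. Mod(mdg4) reached 99.6 and 99.5% in its strongest quintile, and Su(Hw) 75.8 and 78.8%.

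Across the 2643 shared sites the ranks of the proteins went together less closely than those of replicates. Spearman's rho was 0.49 between the replicate 1 lists of the proteins and 0.54 between the replicate 2 lists, and Pearson's r 0.47 and 0.53. It was 0.89 between the Su(Hw) and 0.91 between the Mod(mdg4) replicates, with r of 0.92 and 0.87. These are descriptions over sites of the same 4 libraries.

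Among shared gene-end sites the strongest lay at ng4, a gene of the new glue family (X, 3243932 to 3244929), with Su(Hw) folds of 25.0 and 25.3 and Mod(mdg4) folds of 22.1 and 15.5. At dbf (2L, 10653934 to 10655318) the folds were 24.4 and 24.8 for Su(Hw) and 20.1 and 14.2 for Mod(mdg4). Both sites ranked above 98 in every list. At Lapsyn, which encodes a leucine-rich repeat protein of synapses, the folds were 19.0 and 25.3, then 16.2 and 15.5. At Atet, an ABC transporter gene (2L, 4345515 to 4346239), they were 17.1 and 25.7, then 16.8 and 18.4. Su(Hw) thus ranked lower in replicate 1 than in replicate 2 at both genes. The sites at CG7330, nvy, lncRNA:CR43753 and lncRNA:CR44525 complete the 8, with mean ranks of 98.1, 98.0, 98.1 and 97.5.

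Away from gene ends the strongest shared site lay between CG5386 and rdhB, a retinol dehydrogenase gene (3R, 22343706 to 22345028), with folds of 22.6 and 25.8 for Su(Hw) and 19.9 and 18.5 for Mod(mdg4). Within Wdr62, a gene of the mitotic spindle (2L, 1909320 to 1910410), the folds were 27.9 and 21.96, then 27.1 and 20.6, and Mod(mdg4) replicate 1 had its highest peak there. Its summits were 78 and 73 bp apart in the replicates. The others lay between CG7294 and CG17108 and within pHCl-1, a chloride channel gene (3L, 15853041 to 15854323). All 12 of these shared sites had a peak in both CP190 knockdown lists and in both mock lists of Su(Hw), Mod(mdg4) and CP190, and none had an M1BP peak in any of the 4 M1BP lists of the experiment. Most shared sites were alike. Over all of them the shares were 93.0% for knockdown CP190 and 94.0, 85.6 and 90.3% for mock Su(Hw), Mod(mdg4) and CP190. Over all merged sites they were 42.7% and 48.4, 29.3 and 40.5%. No M1BP peak was found at 95.6% of shared sites in mock and at 97.3% in depleted cells. These shares were near the 93.4 and 96.0% of all merged sites.

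Su(Hw)-only sites included peaks as strong as these. Within Ten-a, which encodes a teneurin of the cell surface (X, 12278838 to 12280904), Su(Hw) had folds of 27.1 and 27.4. Within SK, a calcium-activated potassium channel gene (X, 5388692 to 5389816), they were 23.0 and 28.8, and within fred, a cell adhesion gene (2L, 3947785 to 3949210), 28.3 and 23.4. None of the 3 had a mock Mod(mdg4) peak or a CP190 peak in any mock or knockdown list. Most of the class was alike, as 91.0% of all Su(Hw)-only sites had no mock Mod(mdg4) peak, against 62.3% of all merged sites. No CP190 peak was found at 71.5% of Su(Hw)-only sites in knockdown and at 74.7% in mock cells. For all merged sites these shares were 52.3 and 55.0%. Between CG12540 and CG14414 on X the folds were 23.0 and 26.2, with 1 mock Mod(mdg4) and 1 knockdown CP190 peak. At gene ends the strongest were lncRNA:CR44073 (2L, 1838586 to 1839849, 18.2 and 22.5), CG15728 (20.5 and 20.2) and lncRNA:CR43821 (22.3 and 17.2). They were followed by lncRNA:CR44236 (15.6 and 20.4), CG33288 (16.0 and 19.4) and Pp1-13C, a protein phosphatase gene (16.8 and 16.9). CP190 was present in both knockdown lists at CG15728, CG33288 and Pp1-13C and in neither at lncRNA:CR44073.

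Mod(mdg4)-only sites were weaker within their lists. The strongest at a gene end was Tak1, a kinase gene (X, 20524689 to 20525409), with folds of 10.1 and 8.03, and the only one of the 496 in the strongest quintile of both Mod(mdg4) lists. Dyb and Lac, which encode dystrobrevin and the cell junction protein Lachesin, shared a site with folds of 7.57 and 7.36. At Wnk, a kinase gene (3L, 21554603 to 21555191), they were 6.71 and 6.97. These 3 sites carried CP190 in both knockdown lists and Mod(mdg4) in both mock lists. At fng, which encodes a glycosyltransferase that modifies Notch, the folds were 7.0 and 3.99, at E23, an ABC transporter gene, 6.85 and 4.04, and at Eps-15 and GstE12 5.25 and 4.63. None of these 3 had CP190. Mod(mdg4) was nonetheless in both mock lists at fng and at Eps-15 and GstE12, and in neither at E23. Away from gene ends came sites between nAChRalpha5 and CG46301 (9.51 and 6.29), between eIF4B and l(3)80Fj (8.30 and 6.93), within Muc12Ea (6.38 and 7.32) and within Myo81F (3.83 and 10.3).

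**Figure D4:**
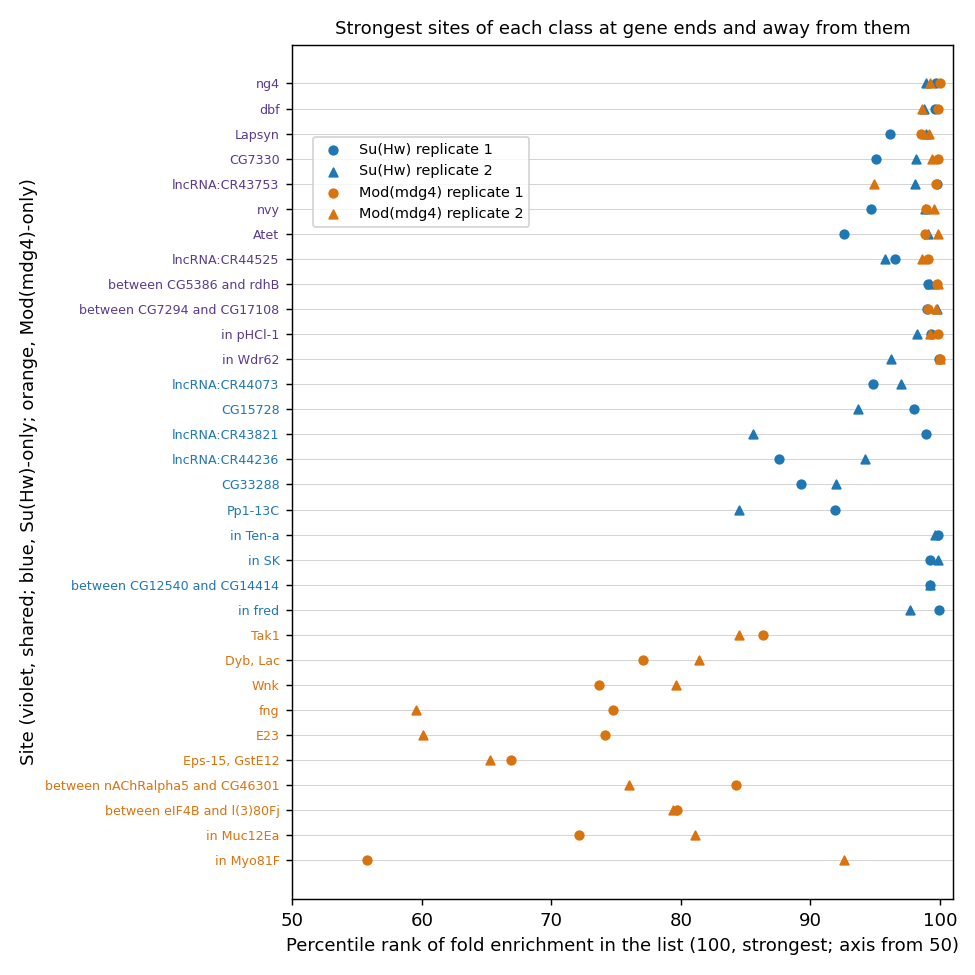
Percentile rank of fold enrichment (horizontal axis, 100 is the strongest peak of a list, axis from 50) in each library at the strongest sites of each class (vertical axis, coloured by class), at gene ends and, for names that start with in or between, away from them. Su(Hw)-only sites within Ten-a and SK rank above 99 in both Su(Hw) lists, as high as shared sites, while Mod(mdg4)-only sites reach 86.3 and 84.5 at Tak1 and, in 1 replicate, 92.6 within Myo81F.

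CP190 went with the shared class. It had a peak in both knockdown libraries at 93.0% (95% Wilson interval 92.0 to 93.9) of shared sites, 18.7% (17.0 to 20.6) of Su(Hw)-only sites and 19.0% (15.7 to 22.6) of Mod(mdg4)-only sites, against 42.7% of all merged sites. Shared sites were wider, with a median of 1173 bp against 705 and 304 bp. With a CP190 summit required within 100 bp of the site's top summit, an alternative chosen after seeing the data, the shares were 85.2, 14.4 and 9.48%. From same-numbered pairs of libraries, 90.6 and 90.5% of shared, 25.4 and 25.7% of Su(Hw)-only and 29.9 and 9.23% of Mod(mdg4)-only sites on the arms overlapped a CP190 peak of that number. The Mod(mdg4)-only value therefore differed 3-fold between libraries, and the other values did not differ by 1 percentage point.

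The gap in CP190 was also seen among sites of the same Su(Hw) quintile. In the strongest Su(Hw) quintile of replicate 1 CP190 was at 833 of 844 shared sites (98.7%, 95% Wilson interval 97.7 to 99.3) and at 83 of 196 Su(Hw)-only sites (42.3%, 35.6 to 49.3). In the weakest quintile it was at 32 of 69 shared (46.4%, 35.1 to 58.0) and at 42 of 418 Su(Hw)-only sites (10.0%, 7.52 to 13.3). Replicate 2 gave 99.2 and 40.1% in the strongest and 42.7 and 8.50% in the weakest quintile. CP190 was thus more frequent at higher Su(Hw) rank in both classes, and in each quintile of both replicates it was more frequent at shared sites.

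M1BP was rare in every class. Both mock libraries held an M1BP peak at 3.14% of shared, 1.79% of Su(Hw)-only and 7.06% (5.12 to 9.66) of Mod(mdg4)-only sites, against 4.85% of all merged sites. The lone Mod(mdg4) lists, given above, differed in this value far more than the classes did. After depletion M1BP had peaks in both libraries at 41 shared (1.55%), 19 Su(Hw)-only (1.03%) and 23 Mod(mdg4)-only sites (4.64%). The same held for 228 of all merged sites (2.62%). At gene ends mock M1BP was found at 32 of 485 shared, 14 of 170 Su(Hw)-only and 15 of 89 Mod(mdg4)-only sites.

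**Figure D5:**
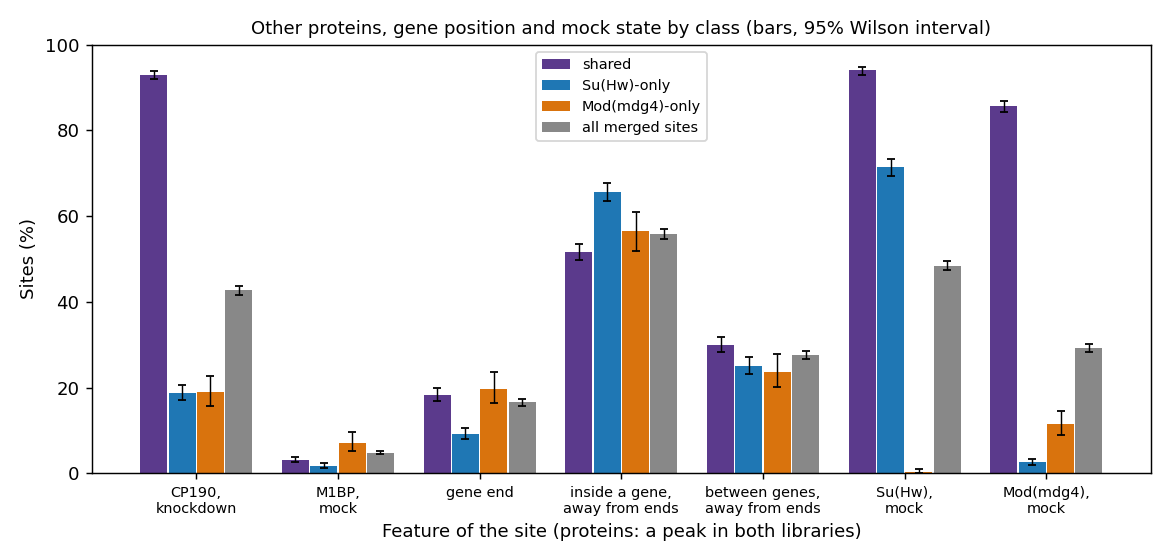
Share of sites (vertical axis, %) of each class and of all merged sites that had a given feature (horizontal axis), with 95% Wilson intervals. A protein counts where both of its libraries had a peak, and gene features are over sites on chromosome arms. CP190 stood at 93.0% of shared sites and at 18.7 and 19.0% of the single-protein classes.

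The classes differed in where they lay relative to genes. A summit within 250 bp of a gene end was found at 485 of 2639 shared sites on the arms (18.4%, 95% Wilson interval 16.9 to 19.9), at 170 of 1840 Su(Hw)-only sites (9.24%, 8.0 to 10.6) and at 89 of 451 Mod(mdg4)-only sites (19.7%, 16.3 to 23.7), against 16.6% of all merged sites. Su(Hw)-only sites lay mostly inside genes and away from their ends (65.7%, 63.5 to 67.8), against 51.6% (49.7 to 53.5) of shared, 56.5% (51.9 to 61.0) of Mod(mdg4)-only and 55.8% of all merged sites. The median distance of the top summit to the nearest gene end was 2217 bp for shared, 4061 bp for Su(Hw)-only and 3012 bp for Mod(mdg4)-only sites. Of the gene-end sites 20.6% of Su(Hw)-only (35 of 170), 11.8% of shared and 13.5% of Mod(mdg4)-only lay at a long noncoding RNA gene, against 12.8% of all merged gene-end sites (179 of 1401).

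The gene-end share of Su(Hw)-only sites was below that of shared sites in both same-numbered pairs, with differences of -8.32 and -7.19 percentage points. A shared site can offer more summits, and with 1 summit per site, an alternative chosen after seeing the data, the difference was -7.28 points. For Mod(mdg4)-only sites the direction differed between libraries. Same-numbered pairs gave 27.3% in replicate 1 and 9.49% in replicate 2, and the difference from shared sites was 9.69 points without replicate 2 and -8.34 points without replicate 1.

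Classes were spread over the large arms in similar proportions. The part of Su(Hw) sites that was shared ranged from 56.5% on X (53.3 to 59.7) to 60.5% on 3R (57.6 to 63.3), with overlapping Wilson intervals. The part of Mod(mdg4) sites that was shared ranged from 83.5% on X and 3R to 88.4% on 2L. On the small arm 4 there were 7 shared, 0 Su(Hw)-only and 1 Mod(mdg4)-only sites. Off the arms lay 45 of the 496 Mod(mdg4)-only sites (9.07%, 6.85 to 11.9), namely 37 on unplaced or random sequences, 4 on the mitochondrial genome and 4 on Y, against 4 shared and 4 Su(Hw)-only sites. Of all Mod(mdg4) peaks 2.03% and 3.66% were off the arms, and of Su(Hw) peaks 0.179% and 0.225%.

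Distances from single-protein sites to the other protein have no background here. The class rule excludes an overlapping peak of the other protein, and the distance for randomly placed sites was not computed. The nearest Mod(mdg4) peak to a Su(Hw)-only site was at a median of 10586 bp in replicate 1 and 12935 bp in replicate 2, and lay within 1000 bp of 6.68 and 5.27% of these sites. For Mod(mdg4)-only sites the nearest Su(Hw) peak was at a median of 13234 and 14221 bp, and lay within 1000 bp of 8.43 and 7.98% of them.

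Nearly all shared sites, and most Su(Hw)-only sites, had a peak of these proteins in mock cells, whereas most Mod(mdg4)-only sites had none. Of all merged sites 48.4% had Su(Hw) and 29.3% had Mod(mdg4) in both mock lists. No mock Su(Hw) peak was found at 47.7% of all merged sites, and no mock Mod(mdg4) peak at 62.3%. For Mod(mdg4)-only sites these shares were 99.2 and 68.1%, so a missing mock Mod(mdg4) peak was common in any class. Both proteins had peaks in both of their mock lists at 2220 of the 2643 shared sites (84.0%, 95% Wilson interval 82.5 to 85.3), and 57 had no mock peak of either protein. Those 57 were weak, with a median mean rank of 27.3 against 73.6 for the 2220. Of the 1844 Su(Hw)-only sites 1171 (63.5%, 61.3 to 65.7) were Su(Hw)-only in mock cells too, 337 (18.3%) had no mock peak of either protein and 44 had carried both. Of the 496 Mod(mdg4)-only sites 336 (67.7%, 63.5 to 71.7) had no mock peak of either protein, 55 were Mod(mdg4)-only in mock cells and 1 had carried both. Su(Hw) had thus been present at 1 of the 496 in both mock lists and at 4 in at least 1 of them. Single-protein sites with no mock peak were weak too. Median mean ranks were 31.2 for the 336 against 52.2 for the 55, and 13.4 for the 337 against 43.4 for the 1171. Mock lists were shorter, at 2999 and 3664 peaks for Mod(mdg4) and 4579 and 4544 for Su(Hw). Whether sites with no mock peak were newly bound was not tested.

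The overlap of the lists was also compared between depleted and mock cells. Of Mod(mdg4) peaks 65.1 and 65.3% overlapped a Su(Hw) peak of the same number in depleted cells, against 91.1 and 84.6% in mock cells. The groups did not overlap, with a difference of -22.7 percentage points (exact permutation test over libraries, two-sided, p = 0.3333, the smallest possible, adjusted p = 0.667). The Mod(mdg4) lists of mock cells were shorter, at 2999 and 3664 peaks. With lists of equal length the difference was -4.32 points. For this all 8 lists, those of Su(Hw) included, were cut to their 2999 strongest peaks. The difference was -9.50 points with a −log10 q of 10 or more and -8.32 points with peaks at least 287 bp wide. Of Su(Hw) peaks 57.2 and 53.1% overlapped a Mod(mdg4) peak in depleted and 55.5 and 63.3% in mock cells, which overlapped (difference of -4.29 points, exact permutation p = 0.667, adjusted p = 0.667). This second difference was -11.4 points with overlap of 50% of each peak, -5.29 with summits within 100 bp, -4.33 with lists of equal length and -3.79 with a peak in either replicate counted, and in these 4 settings the groups did not overlap (exact permutation p = 0.3333 for each). It was -2.04 points with a −log10 q of 10 or more, -0.396 points without mock replicate 2 and -8.17 without mock replicate 1. Whether the replicates came from separate cultures is not stated in the labels, and p-values here measure the spread between libraries, which may be technical.

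Sites near genes of 9 lists were counted with a site taken as near a gene when it lay inside it or within 2000 bp. Over all 17684 genes on the arms, 15.9% had a shared, 9.08% a Su(Hw)-only and 2.81% a Mod(mdg4)-only site. Osiris and cuticular genes, which lie in clusters and serve the larval and adult cuticle, had a shared site in 39 of 121 cases (32.2%) and a Su(Hw)-only site in 3. Neighbouring genes share sites, and 34 shared sites gave this count. The 4 strongest lay by Cpr47Ea and Or47a (folds of 15.7 and 17.9 for Su(Hw), 16.0 and 14.1 for Mod(mdg4)), by Cpr50Ca (16.7 and 20.6, then 12.4 and 10.2), by Cpr47Ee and Cpr47Ef (13.6 and 17.3, then 20.0 and 10.3), and by Osi11 (3R, 6269809 to 6270762, 16.3 and 16.3, then 16.0 and 8.30). Chemosensory receptor and ppk channel genes had a shared site in 32 of 214 cases (15.0%), near the share of all genes. The strongest were by Gr59d (mean rank 94.8), Or47a (93.1), Or59a (90.9) and Ir67a (90.1).

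Ribosomal protein genes had a shared site in 6 of 92 cases (6.52%), respiratory chain genes in 8 of 88 (9.09%) and tRNA genes in 30 of 295 (10.2%), against 15.9% of all genes, and no test of these differences was run. A merged site of any pattern lay near 31.5, 20.5 and 20.0% of them, against 33.3% of all genes. The strongest shared site of each list, and the second of the ribosomal and tRNA lists, are given here. They lay by RpS15Aa (X, 13334492 to 13335293, folds of 16.3 and 20.2, then 15.2 and 9.02), by RpS21 (14.3 and 17.3, then 16.9 and 13.8), by UQCR-14L (15.8 and 18.2, then 10.8 and 12.1) and by tRNA:Arg-TCG-2-3 and tRNA:Arg-TCG-2-4 (16.0 and 19.7, then 13.0 and 11.1), followed by tRNA:Cys-GCA-2-1 (14.3 and 18.4, then 16.1 and 14.1). Sites by RpS21, RpS15 and SdhC also had M1BP in both mock and both depleted libraries. Reads from tRNA genes of near-identical sequence may be split, so their sites are uncertain. Heat shock genes had none of the classed sites near any of 28 genes. A merged site of mixed pattern lay near 6 of them (21.4%).

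Of 21 genes of insulator proteins 2 (9.52%) had a shared, 2 a Su(Hw)-only and 1 a Mod(mdg4)-only site. A merged site of any pattern lay near 7 of them (33.3%), the same share as over all genes (33.3%). The su(Hw) gene itself had a shared site (3R, 14307400 to 14308808), with folds of 8.02 and 12.4 for Su(Hw) and 7.41 and 7.35 for Mod(mdg4), which M1BP and CP190 also occupied in both mock and both depleted libraries. At Trl, which encodes the GAGA factor, 3 Mod(mdg4)-only sites lay side by side, the strongest at 3L, 14757261 to 14757544, with folds of 4.87 and 3.62. None of these 3 had a Su(Hw) peak in any mock list, which held for 99.2% of all Mod(mdg4)-only and 47.7% of all merged sites. The strongest had no mock Mod(mdg4) peak, and each of the others had a peak in 1 of the 2 mock Mod(mdg4) lists. The long gene shep held 3 shared and 3 Su(Hw)-only sites, and rump a weak Su(Hw)-only site (2.95 and 2.53). No classed site lay near Cp190, mod(mdg4), CTCF or M1BP.

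Of 5 yellow and achaete-scute genes 1 had a shared site and none a single-protein site. The shared site by y, the pigment gene yellow, lay at X, 361161 to 362572, with Su(Hw) folds of 13.2 and 14.5 and Mod(mdg4) folds of 14.4 and 10.8. Its summits were 37 and 44 bp apart, and CP190 was present in both knockdown lists. Of 8 homeotic genes, which set segment identity, 1 had a shared, 2 a Su(Hw)-only and 1 a Mod(mdg4)-only site. Antp held a shared site (3R, 6911741 to 6912677, 12.8 and 13.1, then 15.8 and 13.1) and 2 Su(Hw)-only sites. Ubx held a strong Su(Hw)-only site (3R, 16680948 to 16682761, 14.1 and 19.9), a weak Su(Hw)-only site (2.7 and 3.42) and a Mod(mdg4)-only site (3.06 and 2.90). The strong Ubx site had CP190 in both knockdown lists and no mock Mod(mdg4) peak.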

How the data were processed

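The submitters' processing notes name MACS2 2.2.5, Picard 2.20.2, SAMtools 1.9 and Bowtie2 2.3.5, without roles or order, and the options and control library are not stated there. Each library had its own peak calling by the authors, judging from the deposited peak names. The deposited fold of a peak is the authors' ratio of ChIP to control signal, not scaled between libraries, and was used to rank peaks within a list. The deposited −log10 p and −log10 q are the authors' own, and no peak of the 4 lists had a −log10 q under 1.303. The other deposited value is the summit position in bp. No build is named in the labels. It was taken as dm6 from the sequence names and from mitochondrial coordinates that reach 19524, and RefSeq genes of Release 6 gave names and gene ends, without strand or exons.

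Lists were merged with Python 3.11.15, and where a list had several peaks in a site the one with the highest fold was taken. Class counts, summit distance, the sign of the rank gaps and the permutation p were checked on simulated, well separated peaks. Gene positions, overlap with other proteins and gene lists were not checked in this way. Shares carry 95% Wilson intervals, and library values were compared by exact permutation with SciPy 1.17.1, adjusted over 3 tests. Named sites are the 8 shared and 6 of each other class at gene ends and 4 of each class elsewhere with the highest mean rank, and up to 4 per gene list (all for insulator protein, homeotic and yellow genes). Alternatives were the overlap, the peak threshold, list length, replicates, arms, ranks and windows. Members and lists were chosen with earlier results of these data known. No sequence was used here.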

Additional observations from a re-analysis of the deposited data

How the results depend on the processing

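Both rank gaps and the lower gene-end share of Su(Hw)-only sites kept their direction under every alternative run. The gap in peak number went from 232 to 2030.5 and 2675 with weak or narrow peaks left out, and the number of Mod(mdg4)-only sites ranged from 67 to 2975. With overlap of 50% of each peak there were 1153 shared, 3068 Su(Hw)-only and 1333 Mod(mdg4)-only sites, shared parts of 27.3% (Su(Hw)) and 46.4% (Mod(mdg4)), a summit distance of 19.5 bp, a Su(Hw) rank gap of 25.3 and gene-end differences of -13.2 and, reversed, -9.29 points (Su(Hw)-only, then Mod(mdg4)-only). With summits within 100 bp the shared parts were 53.4 and 79.6%, the distance 19.5 bp and the Su(Hw)-only gene-end difference -6.12 points. With −log10 q of 10 or more there were 143 Mod(mdg4)-only sites, shared parts of 48.8 and 93.5%, a distance of 19.5 bp and a Mod(mdg4) rank gap of 39.2. Lists of equal length, here the 4 lists of depleted cells cut to 4862 peaks, gave a shared Mod(mdg4) part of 83.6% and -10.009 points. A peak in at least 1 replicate gave 2975 Mod(mdg4)-only sites, 52.9%, 24.5 bp, a Mod(mdg4) rank gap of 41.8 and -8.19 points, and arms alone a shared Mod(mdg4) part of 85.4%. Ranks of −log10 q gave gaps of 36.7 (Su(Hw)) and 31.3 (Mod(mdg4)), and a window of 1000 bp -13.7 points. Chosen after seeing the data, 1 summit per site gave -7.28 points. Peaks at least 287 bp wide, also chosen after seeing the data, gave 67 Mod(mdg4)-only sites, shared parts of 44.7 and 96.8%, 20.5 bp, a Mod(mdg4) rank gap of 43.1 and a reversed Mod(mdg4)-only gene-end difference of -1.16 points. With a CP190 summit required near the top summit, chosen after seeing the data as well, CP190 shares were 85.2, 14.4 and 9.48% (shared, Su(Hw)-only, Mod(mdg4)-only). The cause of these shifts was not tested.

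Replicate numbers are shared between the proteins by label alone. Over the 2643 shared sites the rank differences between replicates 1 and 2 of the proteins had a Spearman's rho of 0.46 and a Pearson's r of 0.42, from 2 pairs. With the replicate block, values from same-numbered pairs averaged 1817.5 Mod(mdg4)-only sites, shared parts of 55.1 and 62.3%, 24.0 bp, rank gaps of 36.98 and 42.5 and a Su(Hw)-only gene-end difference of -7.75 points. Tests within numbers cannot go below p = 0.5 (exact permutation).

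Leaving out 1 library at a time, shared sites ranged from 2704 to 3049, Su(Hw)-only from 1956 to 2255 and Mod(mdg4)-only from 525 to 1893. The shared parts ranged from 54.6 to 60.9% and from 61.7 to 83.8%, the distance from 22 to 24.5 bp, the rank gaps from 31.5 to 39.6 and from 36.4 to 45.3, and the gene-end differences from -8.93 to -6.95 and from -8.34 to 9.69 points. The gap in peak number ranged from a reversed -124.5 to 588.5, that of Su(Hw) overlap from -8.17 to -0.396 and that of Mod(mdg4) overlap from -25.95 to -19.4 points.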

Other observations

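Of the 1844 Su(Hw)-only sites 390 (21.1%) lay on X. Of the 146 in the strongest quintile of both Su(Hw) lists, 49 (33.6%) were there, 27 on 2L, 18 on 2R, 24 on 3L and 28 on 3R. On X these strongest sites made up 24.0% (95% Wilson interval 18.7 to 30.3) of the sites in that quintile that were either shared or Su(Hw)-only, and on the other arms 16.2 to 18.8%, with overlapping intervals. All 146 had Su(Hw) in both mock libraries, as did all 625 shared sites of that quintile, against 71.4% of all Su(Hw)-only sites. No mock Mod(mdg4) peak was found at 133 of the 146 (91.1%), near the 91.0% of all Su(Hw)-only sites. CP190 was in both knockdown libraries at 63 of the 146 (43.2%), against 618 of the 625 shared sites of that quintile (98.9%). At a gene end lay 7 of the 146. These sites were singled out after the values had been seen, and no test was run on them.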
